A study of Mus musculus with 6 samples.

Results

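The nuclear-encoded respiratory chain genes are the nuclear genes for the protein complexes of mitochondrial oxidative phosphorylation. They were taken by symbol from each count table: every mouse gene beginning with Nduf, Uqcr or Atp5, the 4 genes Sdha to Sdhd, and every Cox symbol numbered 4 to 8, leaving out pseudogene symbols. The rule found 90 of the 25696 mouse genes in the tables, and 85 of the 90 were in every table. Grouped by symbol alone, they comprise 7 core subunits, 30 accessory subunits and 7 assembly factors of complex I, 4 genes of complex II, 8 of complex III, 17 of complex IV and 17 of ATP synthase. A symbol need not name the complex that a gene serves, and Atp5sl is counted with ATP synthase by its symbol only. Cox6a2, Ndufb2 and Ndufb8 were listed only in the droplet table, Cox8b in all tables but the SCRB-seq wells, and Cox8c only in the SMART-Seq2 wells and the whole-series plate table.

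Nuclei came from the brain of C57BL/6J mice aged 8 to 12 weeks, labelled as cortex, preserved either as formalin-fixed paraffin-embedded (FFPE) tissue or frozen. The FFPE tissue was cut as 50 µm scrolls and freed of paraffin by heated mineral oil, heated xylene or room-temperature xylene, followed by graded ethanol, lysis and sorting of nuclei. The sources used here do not give how the frozen nuclei were prepared or how many animals were used. Wells of 10 or 100 nuclei were read by SCRB-seq, a 3′-end method with barcoded wells (16 wells for each of the 3 methods and for frozen nuclei), and wells of 10, 50 or 100 nuclei by SMART-Seq2, a full-length method (3 wells each). Single sorted FFPE and frozen nuclei were read by SMART-Seq2 in plates, and FFPE nuclei of 1 library by droplets on the 10x platform. In the plates, the FFPE nuclei were annotated to the left hemisphere and the frozen nuclei to the right, so preservation and hemisphere cannot be told apart there. All wells of a chemistry belong to 1 deposited sample, so p-values over wells measure only the spread between wells, which may be technical.

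Complex I (NADH dehydrogenase) and complex II (succinate dehydrogenase) pass electrons to complex III (cytochrome bc1), which hands them through cytochrome c to complex IV (cytochrome c oxidase) and oxygen, and ATP synthase uses the proton gradient this builds. Most subunits are encoded in the nucleus, translated in the cytosol and imported, and a small set is encoded by the mitochondrial genome. Neurons depend strongly on oxidative phosphorylation to restore ion gradients after firing. Several complex IV genes come in paired forms, a widely expressed one and one typical of muscle, lung or testis.

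The members are short genes scattered over 19 chromosomes. Of the 90, 89 were found in GENCODE M21 (GRCm38), with a median genomic span of 7.456 kb (0.953 to 155.909 kb) beside 17.338 kb over 21992 protein-coding genes. Another coding gene overlapped 25 members and a gene on the opposite strand lay over 30. SMART-Seq2 does not mark strand, so reads of such pairs cannot be told apart.

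Promoters were taken from RefSeq (GRCm38.p6) as the 300 bases from 250 before to 50 after the annotated start, available for 75 members, and 4 short motifs were searched on both strands. TGCGCA, the core of the NRF1 site, is its own reverse complement. It occurred in 19 member promoters (25.3%), against 8.79% of 27025 genes and 11% of 17492 coding genes. CCGGAAG, an ETS-family site of the kind bound by GABPA (NRF2), occurred in 17 (22.7%, against 9.93% and 12.9%). AAGATGG, the core of the YY1 site, which can share its AAG with CCGGAAG, occurred in 12 (16%, against 7.28% and 7.18%). CCAAT, which can share its last base with TGCGCA, occurred in 33 (44.0%, against 41.1% and 42.3%), near the share in all promoters. A match describes the letters only. The 6 members shown next were picked among promoters that hold a match, so they do not stand for the members that lead the wells. Cox8a, Ndufa4 and Cox7a2, called higher in FFPE wells below, gave no such stretch. Stretches of 90 bases from the promoters of 6 members that the wells single out are shown 5′ to 3′ on the minus strand, with TGCGCA or CCGGAAG in capitals (the latter as its reverse complement CTTCCGG): Cox6b1 (chr7:30626115-30626204), Uqcrh (chr4:116075071-116075160), Atp5e (chr2:174464159-174464248), Cox6a1 (chr5:115348987-115349076), Ndufa6 (chr15:82354327-82354416) and Sdha (chr13:74350241-74350330).
Cox6b1: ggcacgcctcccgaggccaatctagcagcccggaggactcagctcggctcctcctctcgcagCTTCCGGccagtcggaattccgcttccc
Uqcrh: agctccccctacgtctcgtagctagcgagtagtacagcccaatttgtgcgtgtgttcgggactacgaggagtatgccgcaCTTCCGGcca
Atp5e: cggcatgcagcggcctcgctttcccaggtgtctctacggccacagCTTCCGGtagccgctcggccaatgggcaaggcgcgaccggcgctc
Cox6a1: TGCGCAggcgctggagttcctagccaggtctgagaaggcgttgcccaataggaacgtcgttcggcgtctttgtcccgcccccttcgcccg
Ndufa6: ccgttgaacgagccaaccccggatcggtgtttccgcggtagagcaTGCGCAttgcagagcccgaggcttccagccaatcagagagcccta
Sdha: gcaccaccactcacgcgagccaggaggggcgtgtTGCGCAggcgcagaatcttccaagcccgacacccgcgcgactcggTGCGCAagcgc

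Depth and makeup differed between the groups. SCRB-seq wells held 7512 to 167144 mouse counts and SMART-Seq2 wells 270363 to 942966. Malat1, a nuclear long noncoding RNA, took 9.19% ± 1.22 of counts in frozen SCRB-seq wells (SD, n = 16) and 1.27% ± 0.61 in FFPE wells (SD, n = 48). Markers of cerebellar granule neurons, cells that the cortex does not hold, were far higher in FFPE: of 8 listed genes 7 were in the bulk tables, 6 could be tested and all 6 rose in both chemistries. Their summed level was 0 to 325 CPM (counts per 1e6 counts of a well) in frozen and 312 to 5121 CPM in FFPE SCRB-seq wells, and 22.4 to 115 CPM against 1157 to 3984 CPM in SMART-Seq2 wells. Gabra6 and Cbln3 had no count in any frozen well of either chemistry. Of 8 cortical excitatory markers, 3 of 3 tested fell in SCRB-seq and 3 of 6 in SMART-Seq2. The part of these differences in the results below was not tested. In bulk wells, fewer nuclei of a type and less RNA per nucleus cannot be told apart.

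In SCRB-seq wells the respiratory chain genes took a larger share of counts in FFPE than in frozen nuclei, except with 10 nuclei and mineral oil. With 100 nuclei, frozen wells gave the members 0.566% ± 0.099 of counts, and FFPE wells 0.996% ± 0.091 after mineral oil, 0.850% ± 0.100 after heated xylene and 0.932% ± 0.075 after room-temperature xylene (SD, n = 8 each). With 10 nuclei the same groups gave 0.445% ± 0.120, 0.316% ± 0.117, 0.809% ± 0.153 and 0.785% ± 0.193 in that order (SD, n = 8 each). Every FFPE well of 100 nuclei, from 0.719% up, lay above every frozen well, which reached 0.688%. With 10 nuclei the wells of each method overlapped the frozen wells, which ran from 0.328% to 0.687%, and the mineral oil wells ran from 0.175% to 0.556%.

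**Figure D1:**
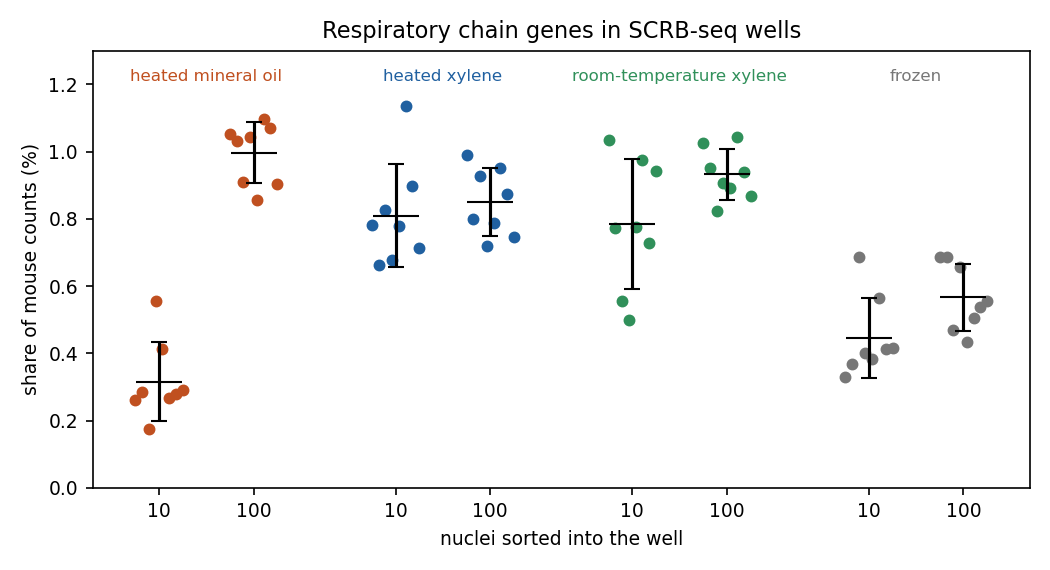
Share of mouse counts (percent) taken by the respiratory chain genes in each SCRB-seq well, by method and number of nuclei; points are wells, the horizontal line is the mean and the error bar the SD of 8 wells. The mineral oil wells of 10 nuclei, 0.175% to 0.556%, are the lowest of the FFPE wells.

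Each method and number of nuclei made up 1 pool of 8 wells. The mineral oil pool of 10 nuclei was the shallowest, with 115185 counts in all against 294313 to 771201 in the other 7 pools, and 3 counts there equal 26 CPM. Of the 85 members, 54 had no count in that pool and 5 were seen in all of its 8 wells, while the same method with 100 nuclei lacked 6 and had 43 in every well. For some genes presence or absence was shared by all wells of a pool. In the mineral oil pool of 10 nuclei, Cox6b1, a peripheral complex IV subunit, had 65 counts in 8 of 8 wells, Ndufa2, a complex I accessory subunit, had 38 in 8 of 8, Ndufb7 had 26 in 8 of 8 and Sdha, the flavoprotein of complex II, had 24 in 8 of 8. Cox6a1, Cox7a2, Atp5a1, Atp5e and Ndufa5 had 0 counts in those 8 wells. The heated xylene pool of 10 nuclei showed the same for other genes, since Sdha, Ndufa2 and Ndufb7 had 0 counts there among 439702. In the room-temperature xylene pool of 10 nuclei those 3 genes had 87, 69 and 82 counts, each in 7 of 8 wells. Wells of a pool are therefore not shown to be independent of each other.

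Between the 3 ways of removing paraffin, few of the 85 members had enough counts in SCRB-seq to be compared over wells. Of the 1080 genes with enough counts to test, 12 were members. Mineral oil against heated xylene called 2 members, both lower in mineral oil, where 8.52% of all genes were called. Atp5a1, the catalytic-head alpha subunit of ATP synthase, was at 0, 24.4 and 342 CPM in mineral oil wells (lowest, median, highest of 16) and at 196, 388 and 664 CPM in heated xylene wells. It was lower by a log2 difference of -1.82 (SE 0.39, adjusted p = 0.00122, edgeR's quasi-likelihood test, adjusted by Benjamini-Hochberg). Ndufa6, an accessory subunit of complex I, was at 0, 38.1 and 292 CPM in mineral oil and 37.5, 145 and 571 CPM in heated xylene (log2 difference -1.50, SE 0.41, adjusted p = 0.0121, same test). The ranges overlapped for both genes. With wells of 100 nuclei alone 10 of 36 members were called, 8 of them higher in mineral oil, where 13.1% of genes were called and 6.09% were higher. Without the count filter 17 of 85 were called, 7 higher and 10 lower, where 6.31% of genes were higher and 12.4% lower. With the wells of each pool summed, an alternative chosen after seeing the data, edgeR's quasi-likelihood test called 0 of 74 members and 0 of 9161 genes in each of the 3 method comparisons, so the calls by well here and in the next paragraph were lost. At an unadjusted p under 0.05 there were then 6 members for mineral oil against heated xylene (genes 4.54%), 0 for mineral oil against room-temperature xylene (genes 3.74%) and 3 between the xylenes (genes 2.91%).

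Mineral oil against room-temperature xylene called 4 members, all lower in mineral oil, where 10.3% of genes were called. Room-temperature xylene wells held 154, 318 and 970 CPM of Atp5a1 and 70.0, 209 and 478 CPM of Ndufa6, above the medians in mineral oil, and the log2 differences were -1.71 and -1.67. Ndufa5, a complex I accessory subunit, was at 0, 12.1 and 407 CPM in mineral oil and 118, 250 and 608 CPM in room-temperature xylene (log2 difference -1.46). Uqcrh, the hinge protein of complex III, was at 0, 46.5 and 293 CPM and 62.4, 182 and 810 CPM (log2 difference -1.51). These comparisons share the mineral oil wells. Without the mineral oil pool of 10 nuclei, an alternative chosen after seeing the data, 7 of 37 members were called against heated xylene, 6 of them higher in mineral oil, where 7.98% of genes were called and 3.27% were higher. Against room-temperature xylene 2 of 37 were called, 1 in each direction, where 7.61% of genes were.

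Heated against room-temperature xylene called none of the 12 members by edgeR's quasi-likelihood test, where 1.94% of genes were called. At an unadjusted p under 0.05 there was no member among 16.3% of genes, and DESeq2's Wald test called no member among 3.33% of genes. The fitted log2 differences of the 12 members ran from -0.50 for Uqcrh and -0.49 for Ndufa5 to 0.65 for Ndufa4 and 0.81 for Cox6a1, each with an SE of 0.40 to 0.53. With wells of 100 nuclei alone 5 of 36 members were called, all lower in heated xylene, where 5.99% of genes were called and 3.23% were lower. Without the count filter 17 of 85 were called, 4 higher and 13 lower, where 6.88% of genes were higher and 9.05% lower.

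The pools of 10 and 100 nuclei lay further apart in mineral oil than in either xylene. An interaction term, added after seeing that the mineral oil pool of 10 nuclei lacked most members, compared the step from 10 to 100 nuclei between methods over wells. Against heated xylene it called 26 of 34 members, 23 of them rising more in mineral oil and 3 less, where 34.7% of 1979 genes were called and 30.3% rose more. The 3 were Ndufb7, Ndufa2 and Sdha, the genes seen in all 8 mineral oil wells of 10 nuclei and in none of the heated xylene wells of 10 nuclei. Against room-temperature xylene it called 22 of 34 members, all rising more in mineral oil, where 38.7% of genes were called and 35.2% rose more. Each method and number is a single pool, so these counts describe those pools and give no test of the number of nuclei. Within mineral oil, 24 of 34 members were higher with 100 than with 10 nuclei and 1 lower, where 44.1% of genes were higher and 7.83% lower. Within heated xylene 6 were higher and 3 lower (genes 12.5% and 7.98%), and within room-temperature xylene 3 were higher and 0 lower (genes 6.27% and 7.58%), counts near those of all genes.

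Set against frozen SCRB-seq wells, 11 of the 18 members that passed the count filter were higher in FFPE and none lower, where 58% of 1478 genes were called and 30.2% were higher. The median log2 difference was 1.27 over these 18 and 0.00 over all genes tested. The filter can be passed through the FFPE wells alone, so these 18 do not stand for the 85 members. Without the filter 20 of 85 were higher and 10 lower, with a median of 0.30, where 7.83% of genes were higher and 17.3% lower and the median of all genes was -0.04. No member had every FFPE well above every frozen well, which 1.29% of genes did. By complex, 3 of 3 accessory subunits of complex I, 1 of 1 of complex III, 4 of 5 of complex IV and 3 of 7 of ATP synthase were higher; the single tested core subunit (Ndufs3) and the single complex II gene (Sdha) were not called, and no assembly factor was tested.

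The largest difference was in Atp5e, the epsilon subunit in the stalk of ATP synthase (GRCm38 chr2:174461072-174464105, minus strand). It was at 0, 3.46 and 30.6 CPM in frozen wells (lowest, median, highest) and 0, 145 and 370 CPM in FFPE wells. Most FFPE wells exceeded all frozen ones and the groups overlapped only at the low end (log2 difference 3.29, SE 0.43, adjusted p = 3.7e-10, edgeR's quasi-likelihood test). Ndufa4 (chr6:11900292-11907497, minus strand), named for complex I and now assigned to complex IV, is counted by its symbol with the complex I accessory subunits in all shares and counts given here, so the complex IV values leave it out. It was at 0, 52.2 and 133 CPM in frozen and 0, 301 and 1623 CPM in FFPE wells (log2 difference 2.68, SE 0.37, adjusted p = 3.4e-09, same test). Cox6b1 (chr7:30616861-30626151, minus strand) was at 0, 91.3 and 162 CPM in frozen and 103, 411 and 1513 CPM in FFPE wells, so that the lowest FFPE wells fell within the frozen range. Its log2 difference was 2.48 (SE 0.33, adjusted p = 6.2e-10, same test).

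Ndufa5 (chr6:24518666-24528013, minus strand) was at 0, 18.7 and 107 CPM in frozen and 0, 123 and 631 CPM in FFPE wells (log2 difference 2.56, SE 0.48). Cox7a2, the widely expressed form of a small complex IV subunit, was at 16.2, 54.7 and 133 CPM in frozen and 0, 239 and 1078 CPM in FFPE wells (log2 difference 1.87). Both overlapped at the low end. The other called members, Atp5j2, Uqcrh, Ndufa6, Cox8a, Atp5b and Cox6c, differed by log2 0.89 to 1.70. Cox6a1, a complex IV subunit (chr5:115345642-115348981, minus strand), was not called: it was at 0, 141 and 292 CPM in frozen and 0, 101 and 982 CPM in FFPE wells (log2 difference 0.36, adjusted p = 0.466 by the same test).

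These calls treat wells as replicates. Summing the 8 wells of each pool, which leaves 2 pools for each method and for frozen nuclei and was added after seeing the data, called 0 of 80 members by edgeR's quasi-likelihood test, while 0.752% of 10235 genes were called. At an unadjusted p under 0.05 there were 8 members, below the share of all genes (14.7%). All 11 kept their direction, and the lowest adjusted p values were 0.0803 for Cox6b1 and 0.0879 for Ndufa4. For those genes the pools themselves did not overlap: mean levels were 94.7 and 71.6 CPM of Cox6b1 in the frozen pools of 100 and 10 nuclei and 292 to 589 CPM in the 6 FFPE pools, and for Ndufa4 58.5 and 48.1 CPM against 153 to 564 CPM. Scaling with DESeq2's size factors moved the median of all genes to -0.58 and gave 9 members higher and 2 lower in place of 11 and 0, where 20.9% of genes were higher and 45.6% lower.

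Over summed counts, 57 of the 83 members with counts in both groups had a higher CPM in FFPE SCRB-seq wells (median ratio 1.51), beside 51.3% of all such genes (median ratio 1.03). The genes of complex II went the other way in 3 of 4 cases. Sdhb, its iron-sulfur subunit, was at 52.9, 130 and 325 CPM in frozen wells and 0, 27.7 and 243 CPM in FFPE wells, with overlapping ranges. Sdhd, a membrane anchor, had 39 counts in the frozen wells and 22 in FFPE wells, which held more counts in all.

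SMART-Seq2 wells showed the higher share in FFPE in every well. Frozen wells of 100, 50 and 10 nuclei gave 0.203%, 0.239% and 0.205% of counts to the members. Mineral oil wells gave 0.581%, 0.572% and 0.533%, heated xylene wells 0.597%, 0.669% and 0.607%, and room-temperature xylene wells 0.733%, 0.895% and 0.438%, in the same order of nuclei. The lowest FFPE well was above the highest frozen well. Mean levels were 0.625% ± 0.130 (SD, n = 9) in FFPE and 0.216% ± 0.020 (SD, n = 3) in frozen wells.

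The complexes differed in how far apart the groups lay. Complex IV took 0.0165% to 0.0222% of counts in frozen and 0.0872% to 0.144% in FFPE wells. Complex I accessory subunits took 0.0366% to 0.0485% and 0.124% to 0.258%, and ATP synthase took 0.0559% to 0.0684% and 0.138% to 0.284%. Complex III took 0.0180% to 0.0248% and 0.0303% to 0.0990%. In these 4 sets of genes the FFPE and frozen wells did not overlap. The other 3 sets overlapped. The 7 core subunits of complex I, which carry the flavin and iron-sulfur centres, took 0.0311% to 0.0434% in frozen and 0.0292% to 0.0599% in FFPE wells. Complex II took 0.0178% to 0.0221% and 0.00873% to 0.0582%, and assembly factors took 0.0113% to 0.0178% and 0.000406% to 0.0302%.

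**Figure D2:**
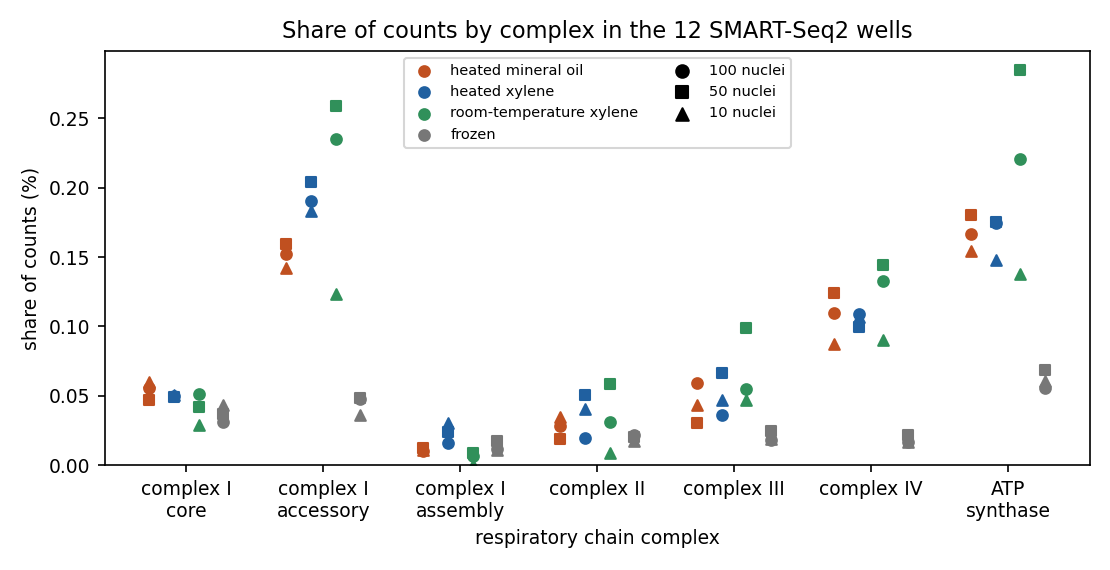
Share of counts (percent) taken by each complex in each SMART-Seq2 well; each point is 1 well, coloured by method or frozen and shaped by the number of nuclei. Complex IV in FFPE wells (0.0872% to 0.144%) lies above all frozen wells (at most 0.0222%), while the shares of the complex I core, assembly factors and complex II overlap.

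No member differed between methods in SMART-Seq2 by edgeR's quasi-likelihood test. Mineral oil against heated xylene called 0 of 75 members and 0% of 8372 genes, heated against room-temperature xylene 0 of 75 and 0%, and mineral oil against room-temperature xylene 0 of 75 and 0%. At an unadjusted p under 0.05 there were 0, 1 and 1 members, and DESeq2's Wald test called 0 members in each and 16, 1 and 20 genes in all. The most negative and most positive members were Ndufb6 (-2.59), Ndufaf7 (-2.52), Ndufs3 (1.31) and Ndufv1 (2.29) for mineral oil minus heated xylene, on the log2 scale. For heated minus room-temperature xylene they were Cox7a2l (-3.01), Uqcrfs1 (-1.72), Uqcrc1 (1.79) and Ndufaf2 (4.13). For mineral oil minus room-temperature xylene they included Atp5d (-2.74), Sdhd (-2.42) and Ndufaf2 (3.00). With 3 wells per method, differences of this size did not pass the test.

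FFPE against frozen SMART-Seq2 wells called 3 of 75 tested members, all higher in FFPE, where 4.09% of 9092 genes were called and 1.45% were higher. DESeq2's Wald test called 14 of 75, all higher, where 6.93% of genes were called and 3.64% were higher. The log2 difference was above 0 for 62 of the 75, with a median of 1.48, beside -0.13 over all genes tested. Here too members could pass the filter through the FFPE wells alone; without it the difference was above 0 for 63 of 84, with a median of 1.42, beside -0.14 over all genes. Cox8a, the widely expressed form of the smallest complex IV subunits (chr19:7215153-7217616, minus strand), was at 12.9, 25.9 and 19.1 CPM in the frozen wells of 100, 50 and 10 nuclei. In the same order it was at 233, 345 and 291 CPM in mineral oil, 199, 154 and 335 CPM in heated xylene and 294, 318 and 75.1 CPM in room-temperature xylene wells. Every FFPE well was above every frozen well (log2 difference 3.45, SE 0.73, adjusted p = 0.00532, edgeR's quasi-likelihood test, adjusted by Benjamini-Hochberg).

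Ndufa4 was at 19.3, 25.9 and 31.4 CPM in frozen wells. It was at 230, 123 and 339 CPM in mineral oil, 337, 398 and 584 CPM in heated xylene and 479, 510 and 124 CPM in room-temperature xylene. The groups did not overlap (log2 difference 3.46, SE 0.67, adjusted p = 0.00241, same test). Cox6a1 had 1 count in the 3 frozen wells together and was at 124, 82.8 and 42.9 CPM in mineral oil, 117, 107 and 111 CPM in heated xylene and 93.8, 77.6 and 93.4 CPM in room-temperature xylene. The ratio of summed levels was 160, with a 95% counting interval of 28.6 to 6329, and 53.3 with 3 counts taken as the floor in frozen wells. The fitted log2 difference was 6.73 (SE 1.36, adjusted p = 0.00373, same test). Cox6a1 was thus called in SMART-Seq2 and not in SCRB-seq, where frozen wells held it at a median of 141 CPM; whether the chemistries differ was not tested.

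Leaving out the frozen well of 100 nuclei left 1 of 80 members called, where 0.672% of genes were higher. Leaving out the room-temperature xylene well of 10 nuclei gave 7 of 80 (genes 1.92%), and leaving out the mineral oil well of 10 nuclei gave 6 of 79 (genes 1.75%). All 9 FFPE wells lay above all 3 frozen wells for 14 of 75 members, beside 3.72% of genes tested. These were Cox5a, Cox6a1, Cox7a2, Cox7b and Cox8a of complex IV, Ndufa3, Ndufa6, Ndufa7, Ndufb4 and Ndufs5 of complex I, Ndufa4, and Atp5b, Atp5g1 and Atp5k of ATP synthase. Atp5b, the catalytic beta subunit, was at 101, 118 and 109 CPM in frozen wells and 209 to 402 CPM in FFPE wells (log2 difference 1.39, adjusted p = 0.129, same test).

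By complex, the median log2 difference in SMART-Seq2 was 2.47 for 27 accessory subunits of complex I, 24 of them above 0, and 2.18 for 10 complex IV subunits, all 10 above 0. It was 1.39 for 15 of ATP synthase (14 above 0), 1.23 for 8 of complex III (7 above 0) and 0.76 for 4 of complex II. The 7 core subunits of complex I had a median of -0.17, with 3 above 0, and 4 assembly factors -1.12. Ndufs1, the largest core subunit, had -1.08, Ndufv1 -0.72, Ndufs3 -0.49, Ndufs7 -0.17, Ndufv2 1.14 and Ndufs8 1.97, none called. In complex II the values were 0.68 for Sdha, -0.46 for Sdhb, 0.84 for Sdhc and 2.05 for Sdhd, none called. Atp5j2, called higher in SCRB-seq by 1.70, had -1.03 in SMART-Seq2 (SE 1.03, not called).

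The order of members by level, in CPM per kilobase of exon, also differed between the groups of SMART-Seq2 wells. In FFPE wells Cox8a was highest at 403, followed by Ndufa4 at 251, Cox7a2 at 137, Cox6a1 at 134 and Cox6b1 at 132. In frozen wells the leading members were Ndufs4 at 42.3, Ndufs3 at 40.1, Sdhb at 38.6, Uqcr10 at 35.8 and Atp5h at 33. Cox6a1 ranked 4 in FFPE and 80 in frozen wells, and Ndufs4, an accessory subunit, 29 and 1.

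Shorter members differed more. Across the 75 tested members the Spearman correlation of log2 difference with genomic span was -0.47, beside -0.13 over 8843 genes; these are correlations across genes that share the same 12 libraries. Members spanning up to 7.456 kb had a median log2 difference of 2.13 (36 genes) and longer ones 1.14 (39 genes), against 0.77 (906 genes) and -0.19 (7937 genes) over all genes tested. At either length the members' median was above that of all genes. In SCRB-seq the correlation was -0.31 over 18 members and -0.23 over 1447 genes.

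**Figure D3:**
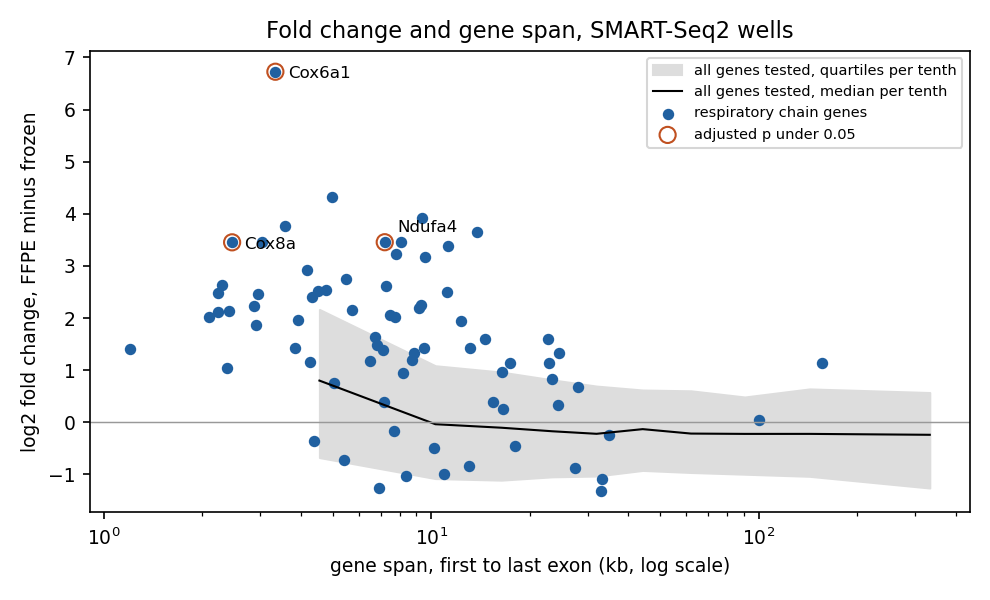
Fitted log2 difference, FFPE minus frozen SMART-Seq2 wells, against genomic span in kb (log axis), for each tested respiratory chain gene (points, circled where called) beside the median (line) and quartiles (band) of all tested genes in 10 bins of span. Members up to 7.456 kb have a median of 2.13 and longer members 1.14.

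The subunits encoded by the mitochondrial genome were also higher in FFPE wells. Of 13 listed, 8 were tested in SCRB-seq, where 7 rose and mt-Co1 fell by 0.83 on the log2 scale, and 9 in SMART-Seq2, where 7 rose (median log2 difference 5.03) and 0 fell. Their summed level was 2758 ± 973 CPM in frozen (SD, n = 16) and 7691 ± 2829 CPM in FFPE SCRB-seq wells (SD, n = 48), and 249 to 396 CPM against 4019 to 8149 CPM in SMART-Seq2. No gene of the other lists was called higher. Of 33 further respiratory chain and assembly genes, 1 was tested in SCRB-seq and fell (Ttc19, a complex III factor, log2 difference -3.90), and 0 of 22 were called in SMART-Seq2. Of 16 Krebs cycle genes, 0 of 1 and 0 of 15 were called. Of 9 regulators, the transcription factor Nrf1 fell in SCRB-seq (log2 difference -0.79, the only one tested) and 0 of 9 were called in SMART-Seq2. At an all-gene background of 1.45% higher calls, 0 calls in lists of this length is no result about them.

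Other cell type markers moved less than those of granule neurons. Higher in FFPE were 2 of 2 tested inhibitory neuron markers in SCRB-seq and 1 of 4 in SMART-Seq2, 1 of 2 and 1 of 5 oligodendrocyte markers, 1 of 1 and 0 of 3 oligodendrocyte precursor markers, and 1 of 2 and 0 of 5 astrocyte markers. No microglia, endothelial or mural marker was called, but over summed counts these lists were higher in FFPE in both chemistries. In that order they were at 79.8, 156 and 52.0 CPM in FFPE and 12.9, 62.6 and 41.8 CPM in frozen SMART-Seq2 wells. In SCRB-seq they were at 153, 198 and 84.3 CPM in FFPE and 106, 153 and 46.9 CPM in frozen wells. The 4 hemoglobin genes had no count in any FFPE bulk well. The part of these cell types in the members' differences was not tested.

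In single plate nuclei the members took similar shares of the summed counts in both arms, 1.79% in 143 FFPE nuclei and 1.94% in 137 frozen nuclei. A few nuclei weigh on these sums: 1 FFPE nucleus held 4973791 of the 23616215 FFPE counts. Without the top nucleus of each arm the order reversed, with 2.04% in FFPE and 1.85% in frozen nuclei. With 1 sample per arm there is no test. Per nucleus the median share was higher in FFPE, 1.89% (quartiles 1.37% to 2.61%) against 1.13% (0.634% to 2.52%). FFPE nuclei were shallower, with a median of 47887 counts against 255329, and showed a median of 22 members against 45. Thinned to 10000 counts, 135 FFPE and 127 frozen nuclei showed medians of 15 and 21 members. Granule neuron markers summed to 1606 CPM in FFPE and 51.1 CPM in frozen nuclei and cortical excitatory markers to 354 and 1020 CPM, in the direction seen in bulk. Inhibitory neuron markers, at 980.0 and 1847 CPM, and hemoglobin genes, at 2200.4 and 750.0 CPM, lay the other way from the summed bulk levels. So did astrocyte markers, at 707 and 1069 CPM, and mural markers, at 142 and 151 CPM, while the other 4 lists were higher in FFPE as in bulk. Their part in the shares was not tested.

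**Figure D4:**
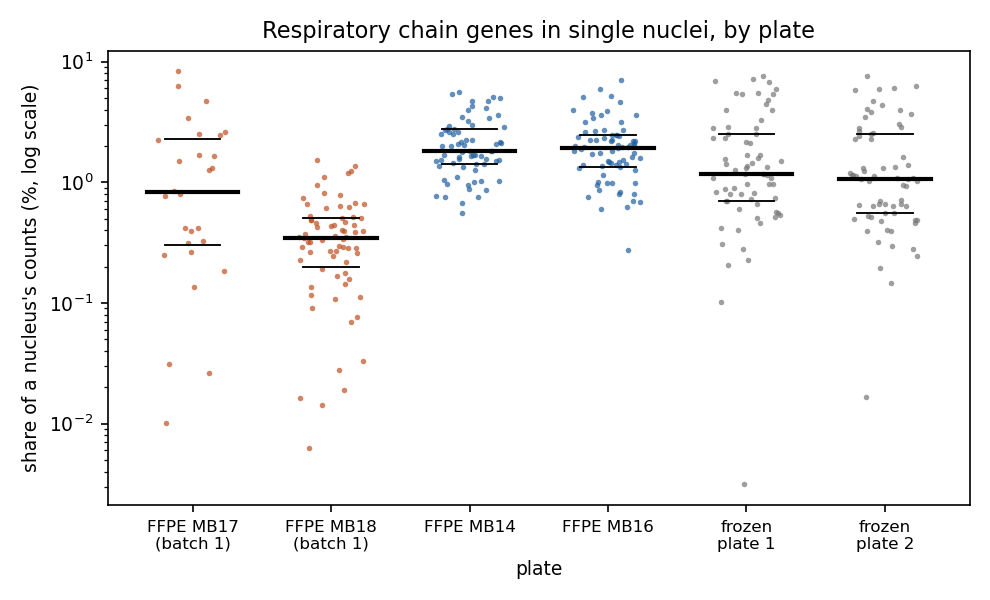
Share of counts (percent, log axis) taken by the respiratory chain genes in each single plate nucleus, by plate; points are nuclei, thick lines the median and thin lines the quartiles. The FFPE plates of batch 1 have medians of 0.823% and 0.346%, below the other 4 plates (1.07% to 1.93%).

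By gene, levels in the plates did not follow the bulk pattern. Among 80 members with a mean of at least 5 CPM over the arms, 8 were at least 2-fold higher in FFPE and 22 at least 2-fold lower, where 27.4% of 11962 genes were higher and 33.1% lower. Of the 7 core subunits of complex I, 4 were lower and 0 higher, among them Ndufs1 with 45 counts against 3317 (27.4-fold lower), Ndufs8 (3.47-fold) and Ndufv2 (2.13-fold). 1 nucleus held 77.8% of the FFPE counts of Ndufs1. Without each gene's top nucleus in each arm, 2 of the 7 were lower, Ndufs1 (92.4-fold) and Ndufs8, and Ndufv2 did not pass (log2 ratio -0.57). Of 17 ATP synthase genes, 7 were lower and 1 higher, and of 10 complex IV genes 0 passed in either direction. Several of the higher ones came from 1 nucleus: it held 94.7% of the counts of Ndufaf5 (11.1-fold), 88.1% of Sdha (6.04-fold) and 76.3% of Ndufa1 (7.42-fold). Without each gene's top nucleus in each arm, 2 of 78 members were higher and 24 lower, where 14.9% of genes were higher and 47.1% lower. Without the FFPE nuclei deeper than any of batch 2, 15 of 80 members were higher and 20 lower, where 25.7% and 38.0% of genes were.

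The members that led in bulk were common in plate nuclei of both arms. Cox8a was at 1407 CPM in FFPE, seen in 77.6% of nuclei, and at 1246 CPM in frozen, seen in 86.1%. Cox6a1, nearly unseen in the frozen SMART-Seq2 bulk wells, was at 1069 CPM in 78.3% of FFPE nuclei and 803 CPM in 77.4% of frozen nuclei. Atp5b was at 1097 and 998 CPM, and without its top nucleus in each arm at 572 and 917 CPM, the other way round. Ndufa4 was at 660 CPM in FFPE and 314 CPM in frozen nuclei, 2.10-fold higher, and without its top nucleus in each arm at 465 and 280.5 CPM, no longer 2-fold apart. Cox8a also changed sides without them (1033 and 1096 CPM), and Cox6a1 did not (925 and 710 CPM). The correlation with span was 0.01 across 79 members and 0.14 across 11606 genes, again across genes of the same libraries.

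Nuclei of FFPE batch 1 gave these genes a lower median share than nuclei of batch 2, on both of its plates, while the summed shares of the plates overlapped. The batch share was 0.647% of summed counts in 98 nuclei of batch 1 (median per nucleus 0.391%) and 2.30% in 134 nuclei of batch 2 (median 1.82%), although batch 1 was deeper, with a median of 180584 counts against 42747. The batch 2 nuclei are also in the whole-series table with the same values. Plate MB18 of batch 1 gave 0.425%; plate MB17 gave 1.87%, but 1 of its 28 nuclei held 32.6% of the member counts and the share was 1.36% without it. The 2 plates of batch 2 as held in the whole-series table, with some further nuclei, gave 2.75% (MB14) and 1.496% (MB16), and the frozen plates 2.24% and 1.66%.

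Of 79 members compared, 55 were at least 2-fold lower in batch 1, where 34.5% of 10885 genes were, and 4 were at least 2-fold higher, where 34.2% of genes were. Without each gene's top nucleus in each batch it was 59 of 75 lower and 3 higher, where 37.6% and 32.4% of genes were. The 55 included 13 of 17 ATP synthase genes, 20 of 27 accessory and 5 of 7 core subunits and 5 of 6 assembly factors of complex I, 5 of 8 of complex III and 7 of 11 of complex IV. None of the 3 complex II genes compared was among them, but without the top nuclei Sdhb (log2 ratio -4.78) and Sdhc (-1.12) were lower too. Ndufaf3, an assembly factor, had 0 counts in batch 1 against 924 and was at least 530.0-fold lower, taking 3 counts over the batch as the floor (at least 286-fold without the top nuclei). Next, Ndufa11 was 20.04-fold lower, Atp5e 18.1-fold, Uqcr10 16.8-fold, Uqcrq 15.8-fold and Cox5a 15.4-fold. Without the top nuclei Ndufa11 was 45.3-fold lower, Cox5a 29.8-fold and Uqcr10 26.9-fold, and the others moved by less than 1.5 times. Cox6a1 was at 139 CPM in batch 1 and 1579 CPM in batch 2. The higher ones were Ndufaf7 (27.0-fold), Ndufs1 (25.1-fold), Uqcrc2 (10.0-fold) and Cox7b2 (9.79-fold). For Cox7b2 1 nucleus held 97.3% of the 219 counts in batch 1, and without the top nuclei it was too low to compare, while Ndufaf7 was 14.7-fold higher. Cytosolic ribosomal protein genes were lower too, 0.324% of counts against 1.67%, while the median share of mitochondrially encoded subunits was 0.487% in batch 1 and 0.378% in batch 2. The batches are on separate plates, so batch and plate cannot be told apart.

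In the droplet library the members took 0.976% of unique molecular identifiers (UMIs; 95% exact Poisson interval 0.964% to 0.988%), 25431 UMIs over 7031 nuclei with distinct barcodes. Nuclei held 235 to 998 UMIs (median 325), with a median of 3 from members, and 288 nuclei (4.10%) had none. Intervals cover counting error only. ATP synthase took 0.287%, complex I accessory subunits 0.243%, complex IV 0.220%, complex III 0.0990%, the complex I core 0.0695%, complex II 0.0405% and assembly factors 0.0173%. The 10 most counted members held 34.8% of the member UMIs and were led by Cox8a with 1742 UMIs. Atp5b had 1118, Cox6a1 1086, Ndufa4 1022, Atp5a1 907, Atp5g3 666, Cox7a2 597, Sdha 590, Atp5g1 557 and Atp5e 555 UMIs.

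The share was similar across the 12 classes of the deposited annotation, between 0.888% and 1.22%. Microglia were highest at 1.22% (1.10% to 1.36%, 93 nuclei), followed by the neuron class ExNeuron6 at 1.12% (1.05% to 1.20%, 209 nuclei) and endothelial nuclei at 1.04%. The other classes ran from ExNeuron2 at 1.01%, ExNeuron1 at 0.990%, oligodendrocytes at 0.989% and astrocytes at 0.986% down through fibroblasts at 0.939%, ExNeuron3 at 0.928%, ExNeuron5 at 0.922% and ExNeuron4 at 0.918%. Oligodendrocyte precursors were lowest at 0.888% (0.823% to 0.958%, 215 nuclei). Neighbours in this order overlapped in their intervals. The classes were clustered from all genes of 1 library, so these levels are a description. Some marker lists were counted at similar levels in unlike classes. Cortical excitatory markers stood at 2644 CPM in astrocytes and 2458 CPM in microglia, beside 2378 CPM over all nuclei. Oligodendrocyte markers ran from 1211 CPM in fibroblasts to 11521 CPM in oligodendrocytes. Other lists were more confined to their class, such as microglia markers, at 1570 CPM in microglia and 103 CPM over all nuclei. The bearing of this on the shares was not tested. Thinned to 235 UMIs per nucleus, microglia stood at 1.25% and oligodendrocyte precursors at 0.899%.

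**Figure D5:**
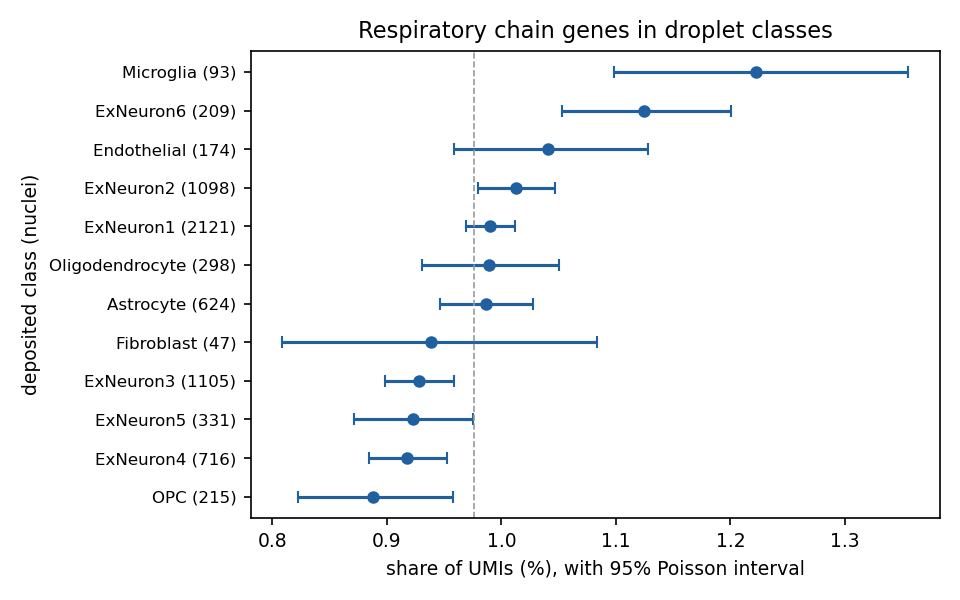
Share of UMIs (percent) taken by the respiratory chain genes in each droplet class, with 95% exact Poisson intervals that cover counting error only; the dashed line is the share over all nuclei. Classes run from oligodendrocyte precursors (0.888%) to microglia (1.22%), around 0.976% for all nuclei.

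Single members hold far fewer UMIs than their sum, so counting error alone spreads them more between classes. Some still lay away from their level over all nuclei. Cox6a1 was at 417 CPM over all nuclei, 701 CPM in ExNeuron6 (531 to 909) and 751 CPM in microglia (471 to 1137). Cox8a was at 669 CPM over all nuclei and 1126 CPM in microglia (775 to 1582). Ndufa4 was at 392 CPM over all nuclei and 221 CPM in oligodendrocytes (141 to 328). In each case the class's interval did not reach the level over all nuclei, with no correction for the number of classes viewed.

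Where both forms of a complex IV subunit were listed, they were seen almost wholly as the widely expressed form. Cox6a2, the muscle form, had 29 UMIs beside 1086 for Cox6a1, Cox8b 8 beside 1742 for Cox8a, Cox7a1 3 beside 597 for Cox7a2 and 141 for Cox7a2l, and Cox6b2, the testis form, 6 beside 551 for Cox6b1. Cox7b2 had 9 beside 297 for Cox7b, and Ndufa4l2 had 6 beside 1022 for Ndufa4. Cox4i2, the lung form of another subunit, had 10, but its partner Cox4i1 was listed in no count table, so that pair could not be compared. The 3 genes for the c subunit of the ATP synthase ring, whose mature proteins are the same, were counted at more even levels: Atp5g3 666, Atp5g1 557 and Atp5g2 385 UMIs. Reads of near-identical copies can be split by counting, so these last values are uncertain.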

How the data were processed

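SCRB-seq and SMART-Seq2 wells, single plate nuclei and droplet nuclei were analysed from the tables of whole-number counts per gene that the authors deposited, with treatment, number of nuclei, plate and class taken from the deposited annotation. The submitters' processing notes name the builds hg19 and mm10; the sources used here do not name an aligner or counter. Human rows of the SCRB-seq table stayed out of all totals and tests. The batch 3 plate table holds 0 nuclei.

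Counts per well were tested with edgeR 4.0.16 (filterByExpr, TMM, quasi-likelihood test, R 4.3.3), with p-values adjusted by the Benjamini-Hochberg method over all genes tested and called under 0.05. Method contrasts used all FFPE wells, and FFPE minus frozen used the mean of the 3 methods. DESeq2 1.42.0 was an alternative, and the fits were tested on simulated data. Shares, plate sums (mean of the arms at least 5 CPM, 2-fold) and droplet classes had no test because each arm is 1 sample. Intervals are 95% exact Poisson intervals and cover counting error only. Doublets were not called. Other steps used Python 3.11.15, numpy 2.4.6, pandas 2.3.3, scipy 1.17.1 and matplotlib 3.10.9.

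Named members were, for each table, the 10 with the most counts; for each contrast, up to 5 called in each direction, or the 2 most extreme each way where none was called; paralog sets, the complex I core and Sdha to Sdhd. Values of 1 member are not reported here. Some others that lead a level, a pool or a set of counts were named after their values were seen. The members, gene lists and markers were chosen with earlier results of these data known. Alternatives tried were other size factors, no count filter, the number of nuclei as a covariate, 100 or 10 nuclei alone, leaving out wells, pool sums, shares without the 20 most counted genes, per-nucleus means, thinning to 10000 counts or 235 UMIs, and a stricter fold.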

Additional observations from a re-analysis of the deposited data

Results flagged for a closer look

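An interaction term for the step from 10 to 100 nuclei between methods in SCRB-seq was fitted after seeing that the mineral oil pool of 10 nuclei lacked 54 of 85 members, so its counts describe that pool and are no independent result. It called 26 of 34 members for mineral oil against heated xylene, 23 rising more in mineral oil and 3 less, where 34.7% of 1979 genes were called. The term called 22 of 34 against room-temperature xylene, all rising more in mineral oil, where 38.7% of genes were called. Each method and number of nuclei is 1 pool, and the 2 comparisons share the mineral oil wells.

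The SCRB-seq table also lists human genes, which enter no comparison. Human counterparts of the members (63 genes) had 1706 counts in all, 0.404% of the human counts, which were 9.47% of all counts. The frozen wells held 27 of them among 22589 human counts (0.1195%), the mineral oil wells 546 among 104091 (0.525%), the heated xylene wells 523 among 145907 (0.358%) and the room-temperature xylene wells 610 among 150072 (0.406%). Human counts as a whole were 2.08% of all counts in frozen wells against 11.4% to 13.2% in the FFPE groups.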

How the results depend on the processing

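All 172 alternatives in which the gene of 20 single-gene results was tested kept the direction, and 138 of them passed the threshold. Settings in which a gene was not tested are not counted. The alternatives refit all or part of the same wells, so a kept direction is no independent support. Fitting the number of nuclei, which the methods share, as a covariate called 3, 0, 5 and 11 members in SCRB-seq for mineral oil minus heated xylene, the xylenes heated minus room-temperature, mineral oil minus room-temperature xylene and FFPE minus frozen, where 13.2%, 5.74%, 18.6% and 59.7% of genes were called, and 3 in SMART-Seq2 for FFPE minus frozen (genes 4.72%). All called for mineral oil were lower there and all called in FFPE higher. In that order of SCRB-seq comparisons, no filter on low counts gave 17 of 85 (7 higher, 10 lower), 17 (4 and 13), 15 (2 and 13) and 30 (20 and 10), where 18.8%, 15.9%, 16.1% and 25.2% of genes were called. With 100 nuclei alone they gave 10 of 36 (8 higher, 2 lower), 5 of 36 (all lower), 2 of 36 (both higher) and 19 of 38 (18 and 1), where 13.1%, 5.99%, 9.11% and 45.9% of genes were called. These sets hold genes beyond those tested over all wells. With 10 nuclei alone they gave 2 of 3 (both lower), 0 of 3, 1 of 3 (lower) and 3 of 4 (2 and 1), where 20.8%, 2.75%, 19.1% and 61.0% of genes were called. Alternatives chosen after seeing the data gave 7, 2 and 22 of 39 (21 and 1; genes 51.1%) for the mineral oil and FFPE minus frozen comparisons without the mineral oil wells of 10 nuclei, and 0 in all 4 summed per pool. The cause was not tested. In SMART-Seq2, FFPE minus frozen gave 14 of 75 with DESeq2's Wald test, all higher (genes 6.93% called, 3.64% higher), and 1 to 7 leaving out single wells.

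Shares without the 20 most counted genes, which lowers the total, were 1.14% and 0.488% in mineral oil, 0.954% and 0.976% in heated xylene, and 1.04% and 0.979% in room-temperature xylene SCRB-seq wells of 100 and 10 nuclei. In SMART-Seq2 they were 0.633% in mineral oil, 0.695% in heated xylene and 0.252% in frozen wells. In plate nuclei they were 1.95% (FFPE), 2.06% (frozen), 0.805% (batch 1) and 2.24% (batch 2). Means of per-nucleus shares were 2.16%, 1.88%, 0.754% and 2.12% in the same order, and the FFPE share was 2.34% without nuclei above the highest batch 2 total. In droplets the mean per nucleus was 1.004% over all nuclei and 1.03% in ExNeuron1, and thinned shares were 1.02% over all nuclei, 1.03% in astrocytes, 1.04% in ExNeuron1, 0.966% in ExNeuron3 and 0.959% in ExNeuron4. At 4-fold, 9 of 80 members differed between FFPE and frozen plate nuclei (3 higher, 6 lower), where 34.0% of genes did.

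Depth limits the mineral oil pool of 10 nuclei most, where 3 counts equal 26 CPM.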
